A study of Homo sapiens with 45 samples.

Results

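The mitochondrial ribosomal protein genes were taken as every row of the deposited tables whose symbol is MRPL or MRPS, a number and at most 1 trailing letter, with pseudogenes and antisense rows left out. The rule found 76 of 23045 rows, 47 of them with a large subunit symbol (MRPL) and 29 with a small subunit symbol (MRPS). It used names only and no measured value. All 76 members reached a mean of 10 CPM (counts of a gene per 1000000 counts in all) over the groups, the minimum above which 8543 rows were compared.

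The cells were single H1 cells, an established human embryonic stem cell line, labelled as passage 40 and grown on Matrigel in mTESR1. The labels give 15 live cells prepared by FRISCR (spelled FRSCR there), 12 fixed cells prepared by FRISCR, 11 live cells lysed with Triton X and 7 fixed cells lysed with Triton X. The titles code the FRISCR cells as PLRC and the Triton cells as RLT. These codes are not explained, and the groups follow the sample group label. FRISCR is a way of recovering RNA from fixed single cells, and the design text calls these cells its proof of principle. Live cells carry the label DAPI- and fixed cells DAPI+; libraries were made with Smart-Seq2 and Nextera XT in all groups. No culture or passage beyond the shared one is given per cell, so a group counted as 1 sample of 1 line: no p-value was computed, and ranges over cells describe cells and not replicate cultures. Each group holds cells of 2 library sets, as the title codes give them, and each comparison is also given within the sets.

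Totals ranged from 3388417 to 6594043 counts per cell. All 9 stem cell markers looked at had counts in every group, with median summed levels of 5346 and 5472 CPM for live and fixed FRISCR cells and of 4430 and 1590 CPM for live and fixed Triton cells. Of 5 fibroblast markers COL3A1, LUM and DCN were at 0 in all 4 groups while COL1A1 and COL1A2 were not, and median sums were 159, 26.3, 64.6 and 43.1 CPM for live and fixed FRISCR and live and fixed Triton cells. Of 8 neural markers SOX1 and HES5 were at 0 in all groups while PTPRZ1, FABP7 and NES were not, with median sums of 418, 337, 435 and 151 CPM. Median shares of counts on the row TVAS5 were 0.826% and 0.773% for live and fixed FRISCR cells, against 6.90% and 26.3% for live and fixed Triton cells. Levels of other rows in CPM are shares of what remains, and a scaling whose totals leave out this and similar rows is given beside the Triton results. Reads of Smart-Seq2 carry no molecular identifiers, so the exact 95% intervals given for folds cover counting error only.

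Mitochondria translate the few proteins encoded in their own DNA, all of them parts of the respiratory chain and ATP synthase or needed for them, on a ribosome of their own. Its RNA is made inside the organelle, but its proteins are encoded in the nucleus, translated in the cytosol and imported. Some are homologues of bacterial ribosomal proteins, while others occur only in mitochondria, and the large and small subunits are assembled separately. Several symbols no longer match the place of the protein: structures put MRPS30 and MRPS18A in the large subunit, and MRPS36 is now known as a part of the 2-oxoglutarate dehydrogenase complex.

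Because the members are transcribed from many separate promoters, the start regions of some members with high levels or extreme folds are shown first. RefSeq windows of GRCh38.p14, from 250 bases before to 50 bases after a start, matched 67 members, 40 large and 27 small. The letters CCGGAAG, the core bound by ETS factors such as GABP, occurred on either strand in 43.3% of the matched members, against 12.2% of all 27305 genes with a window and 25.3% of the 6226 rows compared that had one. The YY1 letters AAGATGGC occurred in 31.3% of the members, against 3.52% of all genes and 8.14% of the rows compared. Of the 21 members with them, 16 held them on the transcribed strand after the start. That is 23.9% of the matched members, against 4.80% of the rows compared and 1.57% of all genes. The 2 sets of letters share AAG at an end, but no member held both in 1 run, CCGGAAGATGGC, against 0.0482% of the rows compared. NRF1 letters (GCATGCGC) were in 8.96% of the members against 7.68% of the rows compared, TATAAA in 4.48% against 7.47% and CCAAT in 34.3% against 45.1%.

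The stretches below run from 120 bases before to 30 bases after the start, 5′ to 3′ on the transcribed strand, with CCGGAAG, its other strand CTTCCGG and AAGATGGC in capitals. MRPL51 (chr12:6493233-6493382, minus strand) and MRPL20 (chr1:1407264-1407413, minus strand) were among the members with the highest levels, MRPL52 (chr14:22829767-22829916, plus strand) was among the highest folds in fixed Triton cells, and MRPL46 (chr15:88467359-88467508, minus strand), MRPS30 (chr5:44808827-44808976, plus strand) and MRPL45 (chr17:38297048-38297197, plus strand) were among the 4 lowest. Every stretch shown holds AAGATGGC, although only 31.3% of the matched members hold these letters on either strand of a window. MRPL24, also among the 4 lowest, and MRPL14 and MRPL32, also among the highest levels, held neither set of letters in stretches of the same span and are not shown. MRPL3, among the highest levels, and MRPL33, among the highest folds in fixed Triton cells, held only the ETS letters there. The stretches shown are thus not typical of all members with high levels or extreme folds. These coordinates are of GRCh38.p14, not of the build used by the authors.
MRPL51: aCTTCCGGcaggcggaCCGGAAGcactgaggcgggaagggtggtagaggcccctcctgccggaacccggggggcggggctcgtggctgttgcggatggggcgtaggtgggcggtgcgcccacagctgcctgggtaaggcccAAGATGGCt
MRPL20: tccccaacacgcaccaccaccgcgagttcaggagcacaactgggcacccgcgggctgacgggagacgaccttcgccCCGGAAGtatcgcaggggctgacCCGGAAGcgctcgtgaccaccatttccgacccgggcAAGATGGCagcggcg
MRPL52: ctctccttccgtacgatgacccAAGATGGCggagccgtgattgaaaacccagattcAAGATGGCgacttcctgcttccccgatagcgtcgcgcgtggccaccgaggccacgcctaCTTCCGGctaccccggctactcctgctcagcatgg
MRPL46: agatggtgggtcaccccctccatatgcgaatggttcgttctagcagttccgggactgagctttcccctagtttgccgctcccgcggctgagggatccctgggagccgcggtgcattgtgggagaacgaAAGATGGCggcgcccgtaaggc
MRPS30: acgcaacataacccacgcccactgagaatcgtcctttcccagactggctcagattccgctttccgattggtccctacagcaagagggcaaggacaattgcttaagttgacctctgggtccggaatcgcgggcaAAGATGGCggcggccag
MRPL45: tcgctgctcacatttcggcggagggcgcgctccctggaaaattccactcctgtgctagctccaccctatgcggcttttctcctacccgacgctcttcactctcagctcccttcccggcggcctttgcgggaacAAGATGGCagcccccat

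MRPL51, MRPL20 and MRPL52 held both sets of letters, as did 8 members in all, while 25 held neither. No share over all rows was taken for these counts. Members with the ETS letters had a median level of 121 TPM (transcripts per 1000000, a unit that corrects for length) and those without it 104 TPM. For the YY1 letters these medians were 121 and 117 TPM. A match is a description of the letters in a window and says nothing of binding in these cells.

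The members formed a moderately expressed class. Their median level was 119 and 138 TPM for live and fixed FRISCR cells and 120 and 64.2 TPM for live and fixed Triton cells, against 27.0, 23.2, 25.8 and 5.76 TPM for all rows compared. The 79 genes of the cytosolic ribosome had medians of 1771, 2010, 1412 and 2096 TPM in the same order. The plot of every member in every cell shows a similar pattern in the first 3 groups and many members near 0 in fixed Triton cells.

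**Figure D1:**
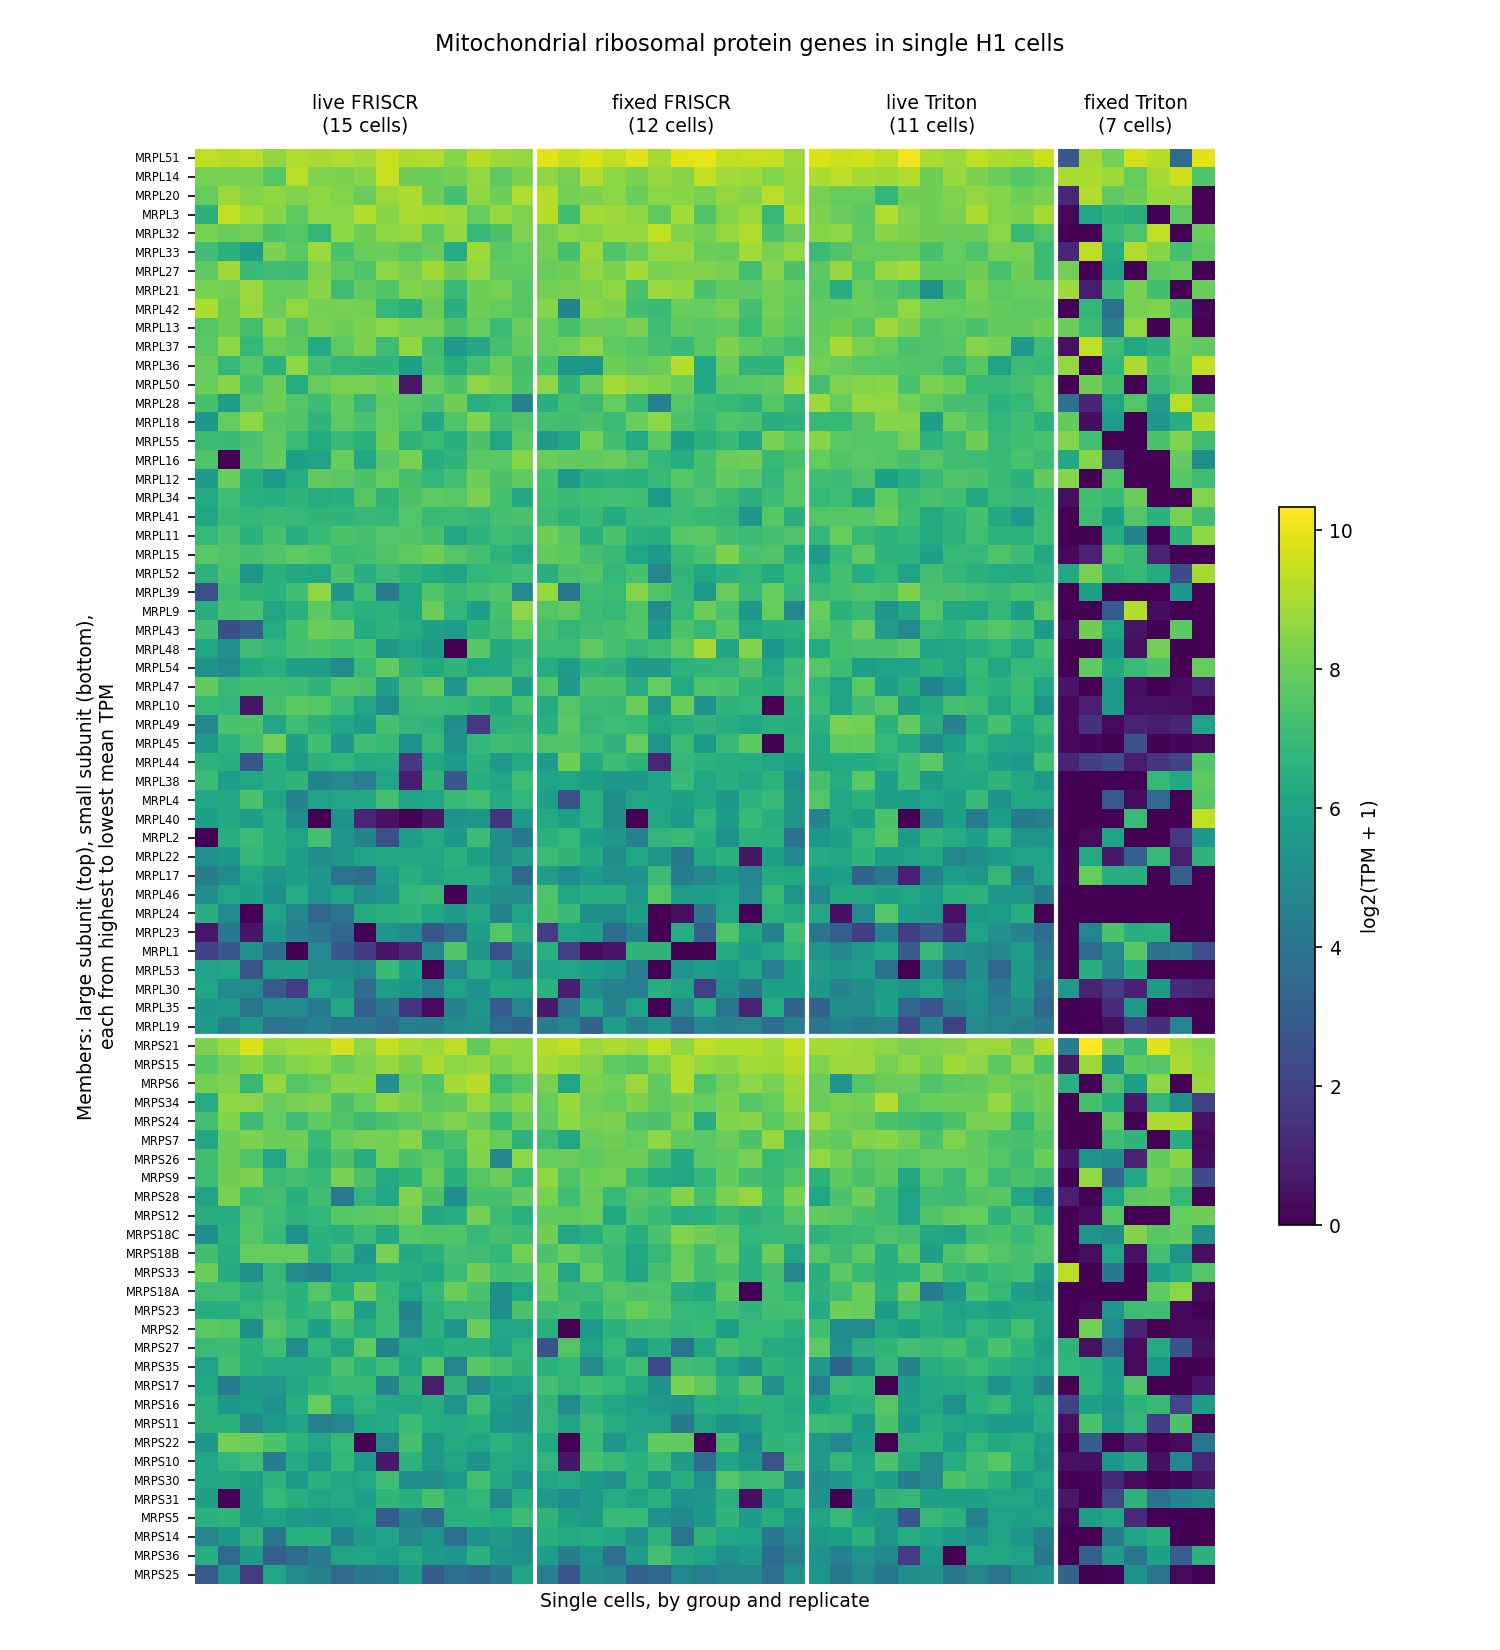
Level of each of the 76 members (rows) in each of the 45 cells (columns), as log2(TPM + 1), with large subunit symbols above the white line and small subunit symbols below, each sorted by mean TPM. MRPL51, with a mean of 603 TPM, is at the top and MRPL19, with 17.5 TPM, ends the large subunit; most dark squares are in the 7 fixed Triton cells.

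Among large subunit members MRPL51, a protein found only in mitochondrial ribosomes, had the highest level. Live FRISCR cells had 531 ± 96.1 TPM (SD, n = 15), fixed FRISCR cells 749 ± 182 (n = 12), live Triton cells 682 ± 203 (n = 11) and fixed Triton cells 453 ± 373 TPM (n = 7). Its exons overlap those of NCAPD2 on the opposite strand. Reads from the overlap could come from either gene, so its level is uncertain. MRPL14, MRPL20, MRPL3 and MRPL32, all homologues of bacterial proteins, followed with means over the 4 groups of 402, 320, 294 and 272 TPM. The lowest large subunit levels were those of MRPL30 (33.3 TPM), MRPL35 (22.4 TPM) and MRPL19 (17.5 TPM).

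Among small subunit members MRPS21, homologous to bacterial S21, came first: live FRISCR cells had 496 ± 170 TPM (SD, n = 15), fixed FRISCR cells 552 ± 95.7 (n = 12), live Triton cells 401 ± 86.0 (n = 11) and fixed Triton cells 494 ± 455 TPM (n = 7). MRPS15, MRPS6, MRPS34 and MRPS24 followed with 334, 243, 230 and 220 TPM. MRPS14 (47.6 TPM), MRPS36 (41.6 TPM) and MRPS25 (20.7 TPM) were lowest. The span of levels was thus wide within each subunit. Exons of 41 of the 76 members overlap those of another gene in GENCODE release 29. For 24 of them such a gene has a row of its own. Examples are MRPS12 with SARS2 and MRPL47 with ACTL6A on the opposite strand, and MRPS6 with SLC5A3 on the same strand. The levels of these members are uncertain in the same way as that of MRPL51.

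The order of the members was alike in the first 3 groups. Spearman's rho of the members' mean TPM was 0.95 between live and fixed FRISCR cells, 0.95 between live FRISCR and live Triton cells and 0.93 between fixed FRISCR and live Triton cells, across 76 genes, which are not replicates. With fixed Triton cells it lay between 0.70 and 0.73. The same values over all rows compared were 0.92 to 0.94 and 0.58 to 0.60.

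Single cells spread widely around these levels. The median coefficient of variation of a member's CPM over cells was 50.5% and 45.3% for live and fixed FRISCR cells and 43.7% and 139% for live and fixed Triton cells. Over all rows compared it was 80.8%, 87.2%, 72.3% and 181%, and over the cytosolic ribosome 21.1%, 23.6%, 20.2% and 32.5%. MRPL51 varied least in live FRISCR cells (19.1%) and MRPL1, which belongs to the mobile L1 stalk, most (177%).

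The share of a cell's counts that fell on the members was similar in all groups. Live FRISCR cells had 0.587% to 0.855% (median 0.701%) and fixed FRISCR cells 0.679% to 0.959% (median 0.819%). Live Triton cells had 0.608% to 0.823% (median 0.725%) and fixed Triton cells 0.290% to 0.776% (median 0.681%). All 4 ranges overlap, and 2 of the 7 fixed Triton cells, with 0.290% and 0.437%, lay below every other cell. In library set 1 the live Triton cells held 0.725% to 0.823% and in set 2 0.608% to 0.746%. TVAS5 took 2.76% to 3.47% in the former and 6.90% to 13.0% in the latter.

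Detection set fixed Triton cells apart more than the share did. With each cell thinned to 1000000 counts, the median number of members with a count was 75 of 76 for live FRISCR cells (71 to 76), fixed FRISCR cells (71 to 76) and live Triton cells (72 to 76). In the 7 fixed Triton cells it was 50, with 29, 44, 45, 50, 51, 52 and 66 members, so that no cell reached the range of the other groups. In percent, the medians were 98.7% in the first 3 groups and 65.8% in fixed Triton cells, against 83.4%, 82.3%, 88.1% and 46.2% of all rows compared. Every gene of the cytosolic ribosome had a count in every thinned cell of all 4 groups.

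**Figure D2:**
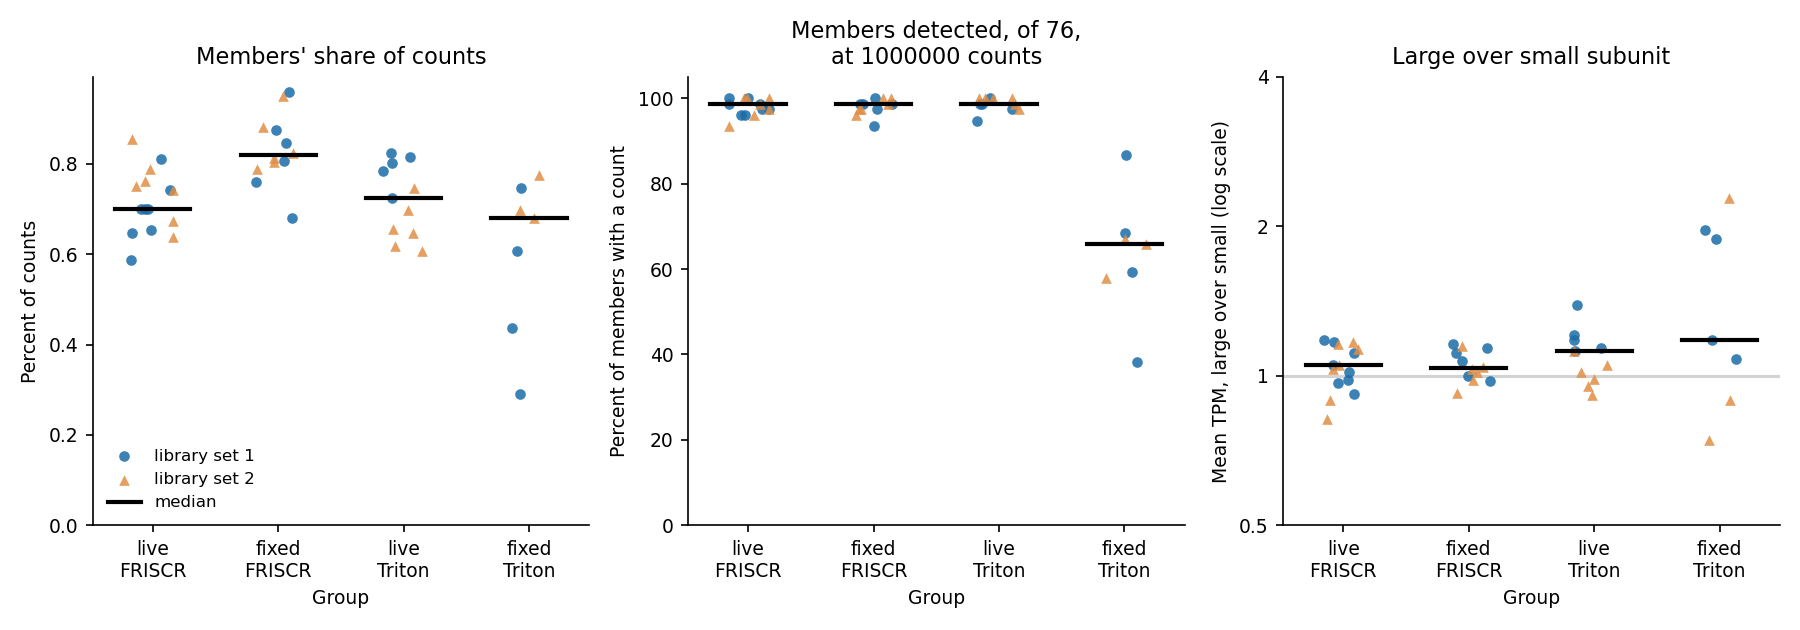
Per cell and group: the members' share of counts (left), the percent of the 76 members with a count after thinning to 1000000 counts (middle) and the mean TPM of large over that of small subunit members on a log scale (right); points are cells, shaped by library set, and bars are medians. Shares overlap between all groups, while detection in the 7 fixed Triton cells, 38.2% to 86.8%, lies below that of every other cell.

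Counts as deposited gave the same picture. A count in every cell was found for 65 members among live FRISCR cells (85.5%, against 49.6% of all rows compared), for 65 among fixed FRISCR cells (85.5% against 48.7%) and for 69 among live Triton cells (90.8% against 61.0%). In fixed Triton cells it was found for 17 members, 22.4% against 23.7% of all rows. In that group the counts of a member came largely from single cells: for 37 of the 76 members 1 of the 7 cells held more than 50% of the group's counts, a share of 48.7% against 65% of all rows compared. In each of the other groups this held for 0 members, against 1.72%, 5.07% and 2.68% of all rows in live FRISCR, fixed FRISCR and live Triton cells. MRPL24 and MRPL46 had a count in no fixed Triton cell, or 2.63% of members against 7.40% of all rows.

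The first question is whether levels after fixation and FRISCR match those of live cells. Members were slightly higher in fixed cells. Their median log2 fold was 0.23, with an interquartile range of 0.05 to 0.44, against -0.02 for all rows compared, and 63 of the 76 members lay above 0. In set 1 the members' median was 0.34 and in set 2 0.16; 40 members were higher in both sets (background 27.2% of rows) and 5 lower in both (background 28.8%). The cytosolic ribosome had a median of 0.26.

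Only 3 members were more than 2-fold higher, or 3.95% against a background of 3.85% of all rows compared, and 0 were more than 2-fold lower, against 7.84%. Cells of the groups overlapped in all 76 members and all rows (0% free of overlap). The share of members called higher was thus near the background, and the share called lower was below it. MRPL40, found only in mitochondrial ribosomes, had 0 to 32.3 CPM in live FRISCR cells (median 14.3) and 0 to 53.5 CPM (median 25.1) in fixed ones. Both groups reached 0, and the summed level was 2.31-fold higher in fixed cells (2.13 to 2.52), which stayed above 2-fold whichever cell was left out, as for 1.72% of rows.

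MRPS17, a homologue of bacterial S17, had 0.232 to 33.2 CPM in live (median 18.2) and 9.99 to 98 CPM (median 34.6) in fixed FRISCR cells, and was 2.25-fold higher (2.11 to 2.41). MRPL1 was 2.08-fold higher (1.95 to 2.23), with medians of 4.56 and 50.8 CPM and log2 folds of 2.04 and 0.51 in the sets. Each of these was under 2-fold without 1 cell: the log2 fold of MRPS17 was 0.93 without fixed FRISCR replicate 7, and that of MRPL1 was 0.85 without fixed FRISCR replicate 12. Without live FRISCR replicate 12 MRPL1 was instead 3.86-fold higher.

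By the fold that is the smaller of the 2 library sets, MRPS28, MRPL23, MRPS17 and MRPL51 were highest. MRPS28 had log2 folds of 0.76 and 0.86 in the sets, with cells from 6.12 to 121 CPM (median 49.1) in live and from 44.1 to 162 CPM (median 80.4) in fixed FRISCR cells. MRPL51 had 0.62 and 0.61, with 123 to 255 CPM (median 177) in live and 158 to 388 CPM (median 267) in fixed cells. In both genes the fixed cells sit higher but overlap the live ones.

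The lowest were MRPL4, MRPS35, MRPL28 and MRPL13, of which MRPL4, MRPL28 and MRPL13 are homologues of bacterial proteins. MRPL4 had 16.8 to 145 CPM (median 65.8) in live and 4.12 to 118 CPM (median 53.0) in fixed FRISCR cells, a log2 fold of -0.42 (-0.33 and -0.51 for the sets). The others had log2 folds of -0.22, -0.15 and -0.11, within the spread of cells.

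**Figure D3:**
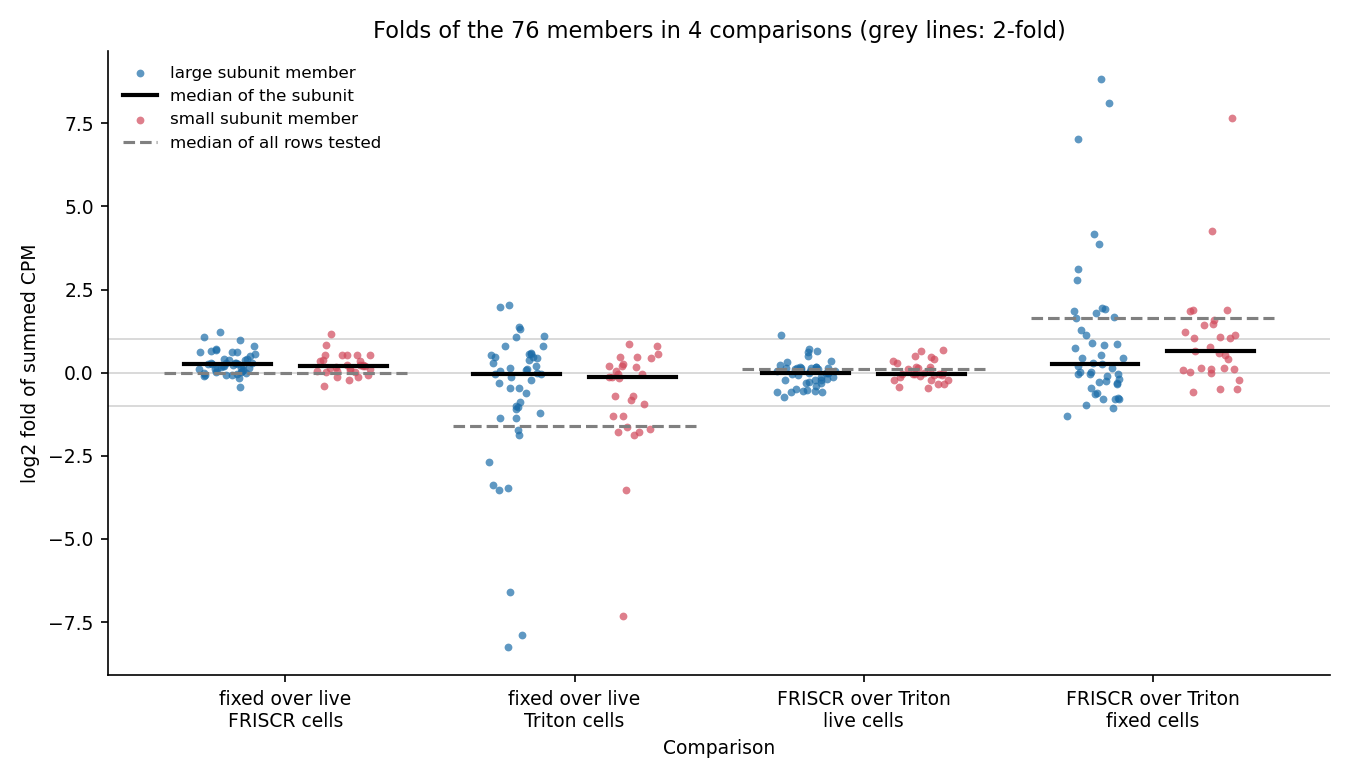
Log2 fold of summed CPM of each member in the 4 comparisons, with large subunit members in blue and small ones in red; black bars are the medians of each subunit, dashed lines the median of all rows compared and grey lines 2-fold. The members' medians sit at 0.23, -0.09, -0.01 and 0.44, and the dashed lines at -0.02, -1.60, 0.10 and 1.64; members at 0 counts in fixed Triton cells are drawn as if the group had 3.

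In the second comparison, fixed over live Triton cells, the members were near their live level on the median while most rows were lower. The members' median log2 fold was -0.09 against -1.60 for all rows compared, a difference of 1.5. Scaling by TMM factors, DESeq2 size factors or totals without abundant rows shifts all rows alike, so it cannot change this difference. With the mean of per-cell CPM the difference was 1.45 and with the mean of per-cell TPM 1.37. The scalings moved the median of all rows between -2.09 and -0.97, so that folds are best read against it. The members' interquartile range was wide, from -1.3 to 0.45. In set 1 their median was -0.67 and in set 2 0.02, against -2.23 and -2.67 for all rows, and 51 members lay above the median of all rows in both sets (background 31.4%).

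More than 2-fold lower were 23 members, or 30.3% against a background of 60.2%, and 28 were lower in both sets against 63.3% of all rows. More than 2-fold higher were 6 members, or 7.89% against a background of 10.2%. That number was 22 with TMM factors, 15 with DESeq2 size factors, 22 with totals that leave out rRNA-named and abundant rows and 2 with TPM, where the members' median was 0.54, 0.41, 0.52 and -0.72. The median of all rows was -0.97, -1.1, -0.98 and -2.09 under these scalings. The share of all rows past 2-fold was not taken for them, so these numbers are no result about the members. Leaving out any 1 cell left 20 members more than 2-fold lower (background 55.1%) but only 1 more than 2-fold higher (background 3.51%). The cells of the groups did not overlap in 4 members, all lower in fixed cells (background 8.86%), and in 0 members higher (background 0.831%).

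**Figure D4:**
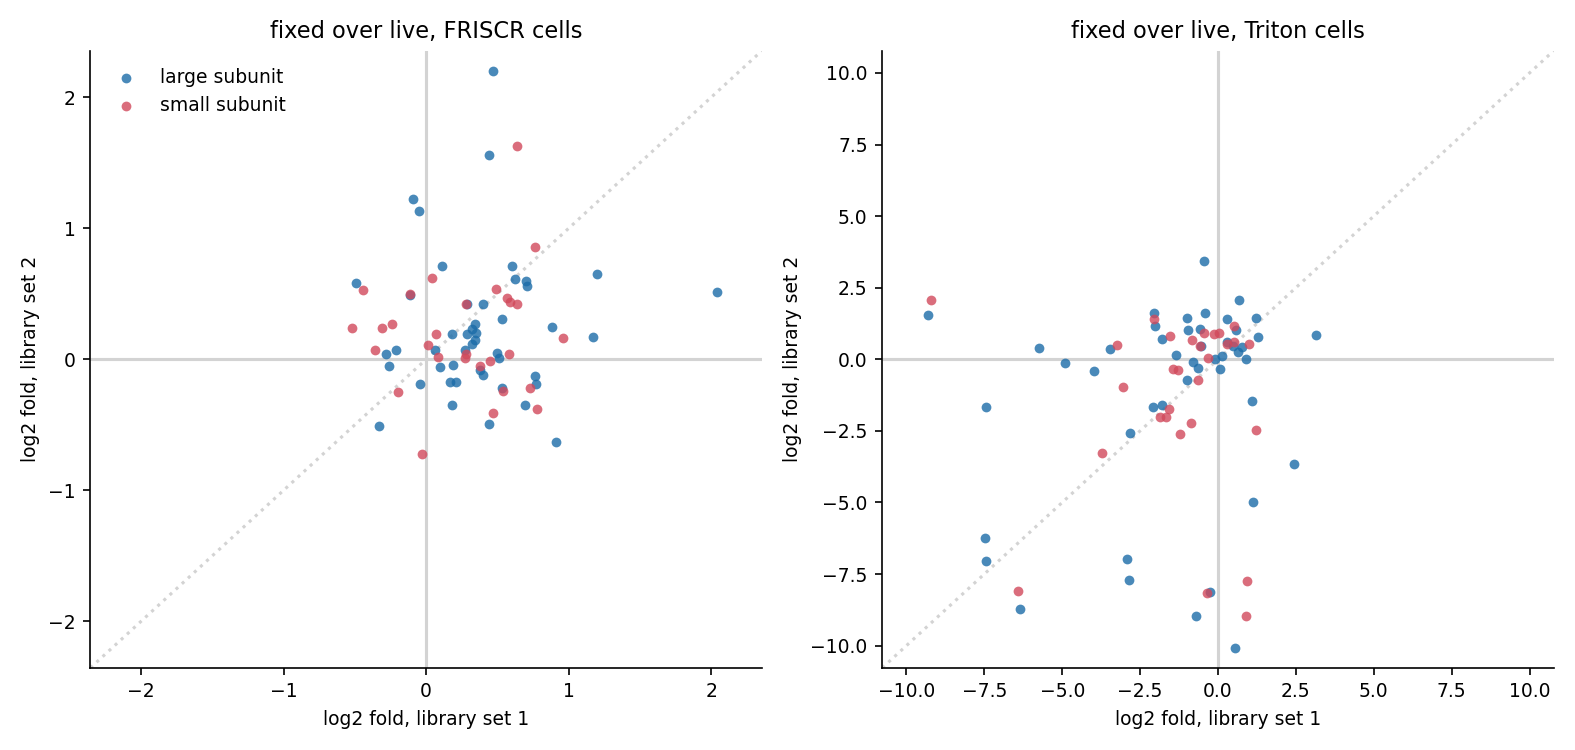
Log2 fold of each member in library set 1 (x axis) and library set 2 (y axis), fixed over live, for FRISCR cells (left) and Triton cells (right), with the axes of each panel on their own scale and the dotted line marking equal folds. In FRISCR cells 40 members are above 0 in both sets; in Triton cells 28 are below 0 in both, and the points far below 0 are members near or at 0 counts in a set, drawn at a floor of 3 counts where at 0.

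MRPL46, MRPL24, MRPS30 and MRPL45 were at or near 0 in fixed Triton cells. MRPL46, a mitochondria-specific protein, had 11.0 to 52.3 CPM (median 29.9) in live Triton cells and 0 counts in each of the 7 fixed ones, which allows up to 3 counts over the group and makes it at least 305-fold lower. All live cells lay above all fixed ones. MRPL24, a homologue of a bacterial protein at the exit of the peptide tunnel, had 0 to 90.0 CPM (median 23.6) in live and 0 counts in fixed Triton cells, at least 238-fold lower. One live Triton cell was also at 0.

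MRPS30 had 17.7 to 165 CPM (median 50.3) in live and 0 to 1.77 CPM (median 0.218) in fixed Triton cells, 12 counts in all, a level 159-fold lower (91.2 to 309). MRPL45, which holds the ribosome at the inner membrane beside the tunnel exit, had 29.5 to 212 CPM (median 76.9) in live and 0 to 6.26 CPM (median 0.218) in fixed Triton cells, 97.6-fold lower (67.9 to 146). In both genes the groups did not overlap. Both sets gave large differences, with log2 folds of -6.42 and -8.09 for MRPS30 and -6.36 and -8.71 for MRPL45. Without fixed Triton replicate 4 the log2 fold of MRPL45 was -9.25, and without replicate 3 MRPS30 was 282-fold lower.

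Fixed FRISCR cells held counts of all 4 genes. In fixed FRISCR cells MRPL46 had 16.6 to 101 CPM (median 38.3) and MRPS30 28.5 to 195 CPM (median 75.8), both above all fixed Triton cells. MRPL45 had 0 to 236 CPM (median 138) and MRPL24 0 to 88.2 CPM (median 23.8) in fixed FRISCR cells. MRPL39, a mitochondria-specific protein of the large subunit, was the fourth gene without overlap in Triton cells, with 73.0 to 180 CPM (median 94.2) in live and 0 to 52.5 CPM (median 0) in fixed ones, 6.44-fold lower (5.85 to 7.11). It had counts in 2 fixed Triton cells, and without replicate 2 it was 12.3-fold lower.

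Further members were lower through most fixed Triton cells with a single exception. MRPL10, which anchors the stalk proteins, had 40.7 to 192 CPM (median 123) in live Triton cells and 0.228 to 74.4 CPM (median 0.537) in fixed ones. Its summed level was 11.6-fold lower (10.2 to 13.1), and without fixed Triton replicate 3 the log2 fold went from -3.53 to -7.51. MRPL47 had a median cell of 55.7 CPM in live and 0.25 CPM in fixed Triton cells and a log2 fold of -3.47, or -7.55 without the same cell. For 28 members (36.8%, against 62.2% of all rows compared) the median fixed Triton cell was under 1 CPM.

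The 6 members more than 2-fold higher in fixed Triton cells by summed CPM carry large subunit symbols: MRPL23, MRPL40, MRPL36, MRPL52, MRPL17 and MRPL33. MRPL23, at the tunnel exit, had 0.698 to 23.4 CPM (median 4.81) in live and 0 to 92.4 CPM (median 15.7) in fixed Triton cells, with a log2 fold of 2.05 that stayed above 2-fold whichever cell was left out. Only 4 of the 7 fixed cells had a count, and an antisense gene overlaps it. MRPL52 had 36.6 to 100 CPM (median 58.7) in live and 4.36 to 447 CPM (median 88.2) in fixed cells, with log2 folds of 1.22 and 1.43 in the sets and 0.74 without fixed Triton replicate 7. The fixed cells spread on both sides of the live ones.

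MRPL36 and MRPL33, homologues of bacterial proteins, had log2 folds of 1.36 and 1.08, with medians of 53.9 and 122 CPM and of 46.4 and 66.4 CPM in live and fixed Triton cells. Leaving out fixed Triton replicate 7 took MRPL36 to 1.00, and leaving out replicate 2 took MRPL33 to 0.66. MRPL40 rested on 1 cell: its median fixed Triton cell was at 0, replicate 7 was at 391 CPM, and without that cell the log2 fold was -0.62 instead of 1.97. MRPL17 went from 1.10 to -0.11 without replicate 2.

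Fold in Triton cells went with the length of the transcript. Length was read from the ratio of the authors' counts to their TPM, relative to the median row compared. Members were short, with a median of 0.37 (0.36 for large and 0.44 for small subunit members), and the cytosolic ribosome shorter, with 0.21. Of the 38 shorter members 5 were called lower and 5 called higher in fixed Triton cells, with a median log2 fold of 0.21. Of the 38 longer ones 18 were lower and 1 higher, with a median of -0.90. Spearman's rho between length and fold was -0.52 across the 76 genes, against -0.15 across all rows compared. Genes are not independent replicates and share the same cells.

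**Figure D5:**
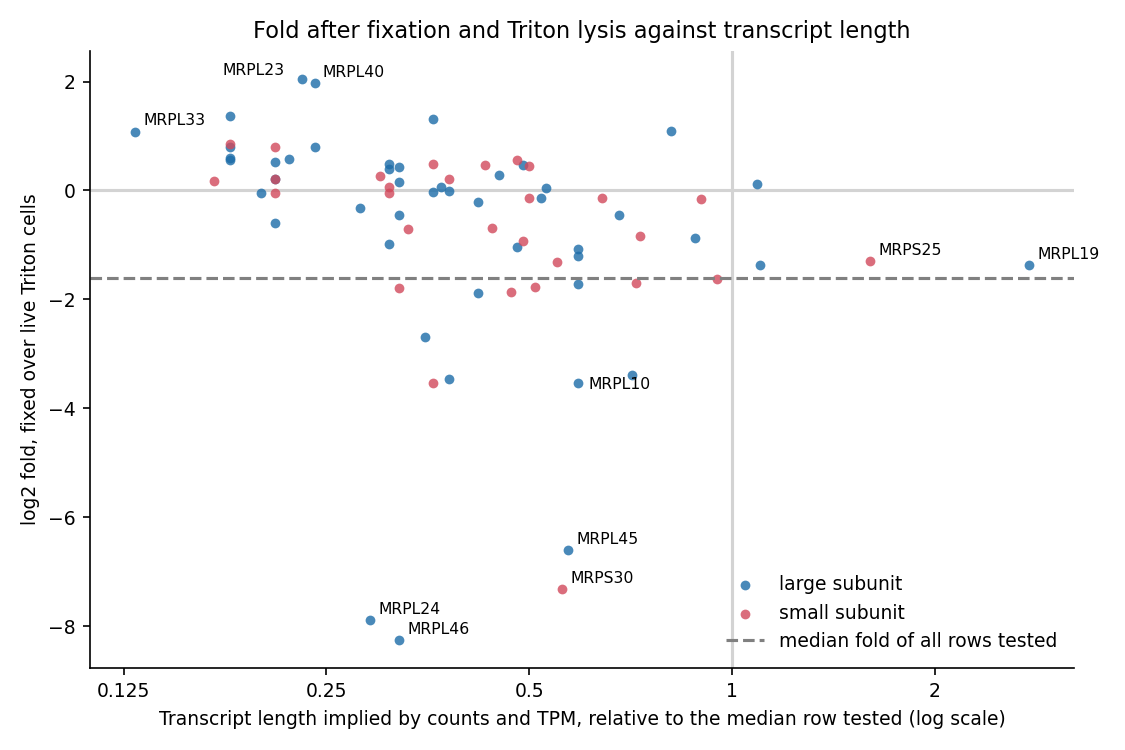
Log2 fold of each member in fixed over live Triton cells (y axis) against transcript length relative to the median row compared (x axis, log scale), with the dashed line at the median fold of all rows, -1.60. Members to the right tend to lie lower; MRPL24 and MRPL46, drawn at 3 counts for the 7 cells, and MRPS30 and MRPL45 lie far below members of like length.

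In fixed over live FRISCR cells rho was -0.31, against -0.23 across all rows, with medians of 0.28 for shorter and 0.17 for longer members. Over all rows compared the shortest 20% of rows had a median of -0.21 and the longest 20% of -1.52 in fixed over live Triton cells, and 0.22 and -0.15 in FRISCR cells.

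Live cells gave like levels with either lysis. In FRISCR over Triton live cells the members' median log2 fold was -0.01 against 0.10 for all rows, with -0.23 in set 1 and 0.19 in set 2. Only MRPL23 was more than 2-fold higher, or 1.32% of members against a background of 6.88%, and 0 members were more than 2-fold lower against 3.45%. MRPL23 had 0 to 75.8 CPM (median 6.44) in live FRISCR and 0.698 to 23.4 CPM (median 4.81) in live Triton cells, and its log2 fold of 1.13 was 0.59 without live FRISCR replicate 14.

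By the smaller fold of the sets MRPL15, MRPS36, MRPL47 and MRPS35 were highest and MRPL39, MRPL40, MRPL44 and MRPS10 lowest in this comparison. MRPL15, a homologue of bacterial L15, had 80.7 to 277 CPM (median 176) in live FRISCR and 48.5 to 211 CPM (median 117) in live Triton cells, with log2 folds of 0.58 and 0.66 in the sets. MRPL39 had 2.54 to 220 CPM (median 71.7) and 73.0 to 180 CPM (median 94.2), with -0.58 and -0.50. Cells of both groups overlapped in each of the 76 members, while 0.246% of rows were free of overlap and lower.

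In fixed cells FRISCR gave higher levels than Triton lysis for most rows, while the direction for the members depended on the scaling. This comparison shares the fixed FRISCR cells with the first and the fixed Triton cells with the second. The members' median log2 fold was 0.44 against 1.64 for all rows, or 1.20 below it. TMM factors, DESeq2 size factors and totals without abundant rows again shift all rows alike and cannot change that distance. Members minus all rows was -1.1 with the mean of per-cell CPM and -1.08 with the mean of per-cell TPM. The members' median was -0.27 with TMM factors, -0.05 with DESeq2 size factors and -0.26 without abundant rows, and 0.94 with TPM. More than 2-fold higher with FRISCR were 28 members, 36.8% against a background of 61.5%, and 22 of them whichever cell was left out (background 55.3%), with 0 members lower in that way (2.40%). More than 2-fold lower were 2 members, MRPL40 and MRPL52, or 2.63% against 8.60%. With TMM factors 16 members were higher and 15 lower. The median of all rows was 0.93 with these factors, and no background share was taken for the 2 counts.

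Both of these turned on fixed Triton replicate 7. Without it the log2 fold of MRPL40 was 1.29 in place of -1.3 and that of MRPL52 -0.49 in place of -1.06. MRPL46 and MRPS30 were the 2 members whose cells did not overlap, both higher with FRISCR (background 4.24%, and 0.468% in the other direction, which held 0 members). They were at least 454-fold and 202-fold (116 to 392) higher, the latter 358-fold without fixed Triton replicate 3. MRPL3, among the most abundant members, had 137 to 627 CPM (median 438) in fixed FRISCR and 0 to 344 CPM (median 109) in fixed Triton cells, 3.77-fold higher with FRISCR (3.63 to 3.91), or 6.53-fold without fixed Triton replicate 6. By the smaller fold of the sets MRPL36, MRPL52, MRPL54 and MRPL14 were lowest with FRISCR. MRPL14 had 130 to 306 CPM (median 161) in fixed FRISCR and 110 to 488 CPM (median 275) in fixed Triton cells, with log2 folds of -0.68 and -0.56 in the sets. It was counted in every cell of both groups, which overlap.

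Members with large and small subunit symbols differed little beside their own spread in each comparison. The large minus the small subunit's median log2 fold was 0.07 in fixed over live FRISCR cells (0.06 and -0.01 in the sets), 0.11 in fixed over live Triton cells (0.20 and 0.46) and 0.03 in FRISCR over Triton live cells (-0.06 and 0.10). In fixed over live Triton cells leaving out 1 cell took it from 0.03 to 0.41. In FRISCR over Triton fixed cells it was -0.37 (-0.50 and -0.38), with a median of 0.26 for the large and 0.64 for the small subunit, and leaving out 1 cell took it from -0.56 to -0.04, the latter without fixed Triton replicate 4. The interquartile range there was -0.3 to 1.67 for the large and 0.1 to 1.43 for the small subunit.

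Per cell, the mean TPM of large over small subunit members had medians of 1.05 (0.818 to 1.18) and 1.04 (0.924 to 1.16) for live and fixed FRISCR cells and of 1.12 (0.913 to 1.39) and 1.18 (0.741 to 2.28) for live and fixed Triton cells. The medians were close and the fixed Triton cells spread furthest. Of the members called lower in fixed Triton cells 14 had MRPL and 9 MRPS symbols, or 29.8% and 31.0% of each kind. The 9 include MRPS30, and these counts go by symbol and not by the place of the protein. Called higher there were 12.8% of MRPL and 0% of MRPS symbols (background 10.2%), of which only MRPL23 stayed so whichever cell was left out. Called higher with FRISCR in fixed cells were 31.9% and 44.8% (background 61.5%). The median large and small subunit member had 81.3 and 48.1 TPM in fixed Triton cells, and 124 and 119 TPM in live Triton cells. Thinned fixed Triton cells held a count for a median of 61.7% of large and 69.0% of small subunit members.

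The 3 paralogs MRPS18A, MRPS18B and MRPS18C, related to bacterial S18, take different places in the ribosome. In live FRISCR cells their mean levels were 131 ± 64.7, 159 ± 78.7 and 124 ± 52.0 TPM (SD, n = 15), and they did not differ beyond the spread of cells. In fixed Triton cells MRPS18A was counted in 3 of 7 cells, MRPS18B in 6 and MRPS18C in 6. After Triton lysis the summed level of MRPS18B was 3.43-fold lower for fixed cells (3.23 to 3.65), or 6.83-fold without fixed Triton replicate 5, with a median of 161 CPM in live and 0.5 CPM in fixed cells. MRPS18A and MRPS18C had log2 folds of 0.21 and 0.48, and that of MRPS18A was -1.34 without fixed Triton replicate 6. Exons of RSPH9 overlap those of MRPS18A.

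Members with known roles in translation also differed among themselves. MRPL12, the stalk protein that recruits elongation factors, had 29.5 to 129 CPM (median 75.7) in live and 0 to 285 CPM (median 118) in fixed Triton cells. Its log2 fold of 0.43 stands beside -3.53 for its anchor MRPL10, although only 4 of the 7 fixed cells had a count of MRPL12 and its log2 fold was -0.09 without fixed Triton replicate 1. MRPS12, at the decoding centre, and MRPS2 had log2 folds of -0.05 and -0.13, with a median fixed Triton cell of 0.21 and 0.228 CPM. In each of them a few cells carried the level. Without fixed Triton replicate 2, which held 366 CPM of it, MRPS2 went to -3.70. MRPS12 lay at 149, 218 and 226 CPM in fixed Triton replicates 3, 6 and 7 and at 0.21 CPM or less in the others. Its log2 fold of 0.21 without replicate 2 therefore leaves in all the cells that carried it.

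Other genes that serve mitochondrial translation were compared as lists. Mitochondrial ribosomal proteins under other symbols (DAP3, PTCD3, AURKAIP1, CHCHD1, ICT1, MRP63 and GADD45GIP1) had a median log2 fold of 0.25 in FRISCR and of -0.34 in Triton cells (sets -0.7 and -0.08), fixed over live, with 2 of 7 more than 2-fold lower in the latter. The 11 translation factors had medians of -0.09 and -1.65, with 8 lower and 1 higher in Triton cells. In the library sets the Triton medians were -3.07 and -5.98, against -2.23 and -2.67 for all rows. TUFM, the elongation factor that brings charged tRNA, had a log2 fold of -1.65 in Triton and 0.03 in FRISCR cells. TSFM, its exchange factor, had 57.1 CPM and 0 counts.

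The 19 assembly and rRNA modification genes with enough counts had medians of 0.07 and -1.94 (Triton sets -3.06 and -2.89), with 14 lower and 1 higher in fixed Triton cells. The GTPase ERAL1, which binds the small subunit's RNA, had 155 CPM in live and 0.0343 CPM in fixed Triton cells. The 8 genes of mitochondrial RNA synthesis and stability had medians of 0.17 and -1.36 (Triton sets -0.83 and -2.24), with 6 lower and 1 higher. Of the 16 mitochondrial aminoacyl-tRNA synthetases 15 were lower and 0 higher, with a median of -6.70 in Triton (sets -6.87 and -6.16) and -0.37 in FRISCR cells, and 3 of them were at 0 in fixed Triton cells and entered at their bound. OXA1L and LETM1, put in 1 list with MRPL45 as inner membrane genes, had log2 folds of -1.44 and 1.02. Beside these lists stand the median of -1.60 and the 60.2% of all rows that were lower, and the cytosolic ribosome with a median of 1.27, 48 of 79 genes higher and 0 lower.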

How the data were processed

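The authors deposited 2 tables: estimated counts per gene, of which 40.3% of the values above 0 were fractional, and TPM values, per the file headers. Estimated (expected) counts were made by the authors against GRCh37, as the submitters' processing notes list it. Aligner, quantifier and strand setting were not given in the sources used here. Estimated counts were rounded; all 45 cells were kept, and no pair held identical values.

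A group's level is its summed count over its summed total (CPM), and a fold is the ratio of such levels with an exact binomial 95% interval. Sums of 0 were set at 3 counts per group. Rows with a mean of 10 CPM were compared, and called means past 2-fold. Other scalings took factors from edgeR 4.0.16 and DESeq2 1.42.0 in R 4.3.3. The rest used Python 3.11.15, and its fold and interval functions were tested on simulated data. The simulation changed only well-counted rows and gave all rows the same spread over cells. It did not copy the spread of fixed Triton cells, so it does not show how precise their folds are.

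Members and lists were chosen with earlier results of these data known. The rule for naming members took the 5 highest and 3 lowest of each subunit by TPM, 4 at each end of every comparison by the smaller log2 fold of the library sets, the S18 paralogs, MRPL10, MRPL12, MRPS12 and MRPS2, the 3 detected in fewest cells and those at 0 in a group. MRPL1, MRPL17 and genes of other lists were named after their values were seen. Calls with any cell left out and the share held by 1 cell were added after seeing the data.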

Additional observations from a re-analysis of the deposited data

Results flagged for a closer look

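Among 47 groups of values looked at, 13 stood out, each a member for which the gap between the highest of the 7 fixed Triton cells and the next was large beside the whole range, past Dixon's 95% value. The rate of about 1 in 20 that chance gives holds for normally distributed values, which these are not: 28 members had a median fixed Triton cell under 1 CPM, and cells are not replicates of the condition. The flags therefore describe single cells and test nothing. Each is given as the CPM of that cell. Fixed Triton replicate 7 held 218 CPM of MRPL4, 391 of MRPL40 and 268 of MRPL44. Replicate 6 held 183 of MRPL19 and 625 of MRPL28, and replicate 5 held 424 of MRPL32. Replicate 4 held 120 of MRPL35, 136 of MRPS25 and 6.26 of MRPL45. Replicate 3 held 1.77 of MRPS30, 42.8 of MRPL47 and 74.4 of MRPL10, and replicate 2 held 366 of MRPS2. The high cell differed from gene to gene.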

How the results depend on the processing

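No paired analysis was possible because the replicate numbers follow accession order and pair no cells, and no comparison between groups comes from a test. In fixed over live FRISCR cells the large minus small subunit difference was 0.0 with the mean of per-cell TPM and -0.01 in library set 2, and members more than 2-fold higher numbered 0 at a mean of 50 CPM, 5 in set 2, 12 at 1.5-fold and 0 at 3-fold. In fixed over live Triton cells the members' median was 0.54 with TMM factors, 0.41 with DESeq2 size factors, 0.52 with totals without rRNA-named and abundant rows, -0.72 with TPM and -0.67 in set 1. Members higher there numbered 22, 15, 22 and 2 under the first 4 of these, 15 in set 2, 11 at 1.5-fold and 2 at 3-fold, and the subunit difference was 0.46 in set 2. In FRISCR over Triton live cells members higher numbered 0 at 50 CPM, 2 in set 1, 2 in set 2, 6 at 1.5-fold and 0 at 3-fold, and members lower 5 in set 1 and 2 at 1.5-fold.

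In FRISCR over Triton fixed cells the members' median turned to -0.27 with TMM, -0.05 with DESeq2 and -0.26 without abundant rows, and was 0.94 with TPM and 0.84 in set 1. Members higher numbered 16 with TMM and 16 without abundant rows. Members lower numbered 15 with TMM, 10 with DESeq2, 15 without abundant rows, 0 with TPM, 1 at 50 CPM, 4 in set 1, 9 in set 2, 9 at 1.5-fold and 0 at 3-fold. The subunit difference was -0.50 in set 1 and -0.51 with the members under other symbols. The median of all rows moved with the scaling as well, and the members' distance from it is given with the comparisons. Counts of members past a fold in this section have no share of all rows beside them. They show how the counts move with the setting and are no result about the members. The cause of these changes was not tested.

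With each cell left out in turn, the members' medians ranged from 0.19 to 0.27, from -0.33 to -0.01, from -0.03 to 0.04 and from 0.30 to 0.64 in the 4 comparisons in the order above. Subunit differences ranged from 0.0 to 0.13, from 0.03 to 0.41, from -0.04 to 0.08 and from -0.56 to -0.04. Members higher numbered 2 to 4, 3 to 8, 0 to 1 and 26 to 30, and members lower 0 to 0, 21 to 26, 0 to 1 and 0 to 5. The 3 came without fixed Triton replicate 7 and the last 0 without the same cell. The number of cells, 7, limits the precision of fixed Triton levels.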
